A study of Mus musculus with 8 samples.

Results

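This section concerns 10 mouse glutathione transferase genes, Gsta4, Gsta3, Gsta2, Gstm1, Gstm3, Gstk1, Gsto1, Gstt1, Gstp1 and Mgst1, of the 18193 genes that the arrays named. The genes were picked by name, with the knockout against control values of these same arrays already known, so their values in that contrast are given as a description, with standard errors but without p-values. Of their 17 probe sets, each a group of short array probes for a gene, 5 genes had 1, 4 genes had 2 and Gstm1 had 4. RNA was measured in the 5 cm of small intestine next to the stomach, from male mice aged 6 months on a diet with 4.5% fat. The 4 knockout mice carried loxP sites on both Pdx1 alleles and a Cre transgene under a 12.4 kb fragment of the mouse villin 1 promoter (Pdx1flox/flox;VilCre), which removes Pdx1 exon 2 from gut epithelium. The 4 control mice were Pdx1flox/flox, so they carried the floxed alleles without Cre, and the labels call all 8 mice litter brothers. Pdx1 encodes a homeobox factor needed for the pancreas and active in the duodenum. Each sample was whole tissue on 1 array, so fewer cells of a type and less RNA per cell cannot be told apart.

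Glutathione transferases join the tripeptide glutathione to electrophilic compounds, which makes them more soluble and marks them for export from the cell. In the small intestine they stand, together with other conjugating enzymes and efflux pumps, between food-borne toxins and the blood. The cytosolic enzymes fall into classes named by Greek letters, among them alpha, mu, omega, theta and pi, while kappa enzymes lie in mitochondria and peroxisomes and Mgst1 is a membrane protein of another family. The transcription factor NRF2 drives many of their genes through antioxidant response elements.

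Values are the deposited log2 expression values, on which a difference of 1 is a doubling. Array medians lay between 5.23 and 5.27. Levels of different probe sets are not compared with each other, since probes differ in how strongly they bind. Pdx1 itself read 6.04, 5.91, 6.18 and 5.58 in knockouts 1 to 4, against 8.33, 8.61, 8.16 and 8.98 in controls 1 to 4, so every knockout array matched its label in this transcript. Knockout 3 and control 2 stood apart from the rest of their groups: 913 probe sets of knockout 3 lay over 0.5 from the knockout mean, against 175 to 395 in the other knockouts, and 451 of control 2 from the control mean, against 203 to 349 in the other controls. Their deviations from their group means were alike, with r = 0.60 across all probe sets. The changes, spreads and correlations of the glutathione transferases that moved without both arrays are given with and without them.

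Gsta4 was lower in each of the 4 knockout intestines than in any of the 4 controls. Gsta4 encodes an alpha class enzyme that conjugates 4-hydroxynonenal, a reactive aldehyde formed when membrane lipids are oxidised. Its single probe set read 10.99, 11.18, 10.59 and 11.22 in knockouts 1 to 4, against 11.96, 11.99, 11.83 and 12.49 in controls 1 to 4. The groups did not overlap, and a gap of 0.61 separated the highest knockout from the lowest control. Knockouts averaged 11.00 ± 0.29 and controls 12.07 ± 0.29 (SD, n = 4 each). The difference of -1.07 log2 units (SE 0.17) makes the knockout level 2.10-fold lower, or 47.6% of the control level. Leaving out knockout 3 and control 2 together gave -0.96. Over all 45037 probe sets 0.102% had a log2 change of -1 or lower, and 2.33% had all knockout values under all control values. Those shares are background to values that helped to choose the gene, and nothing is read from them.

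Gsta4 was the only one of the 17 probe sets whose groups did not overlap, where 4.43% of all probe sets were separated in one direction or the other. In the limma fit 0 of the 17 passed an adjusted p under 0.05, which 0.0422% of all probe sets did. An unadjusted p under 0.05 was found for 1, that of Gsta4, and for 7.13% of all probe sets. The genes were picked with these values known, so the counts are a description and nothing is read from them. The median log2 change over the 17 probe sets was -0.03, beside 4.75e-05 over all probe sets. By gene, 7 of the 10 were below 0 and 3 above.

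**Figure D1:**
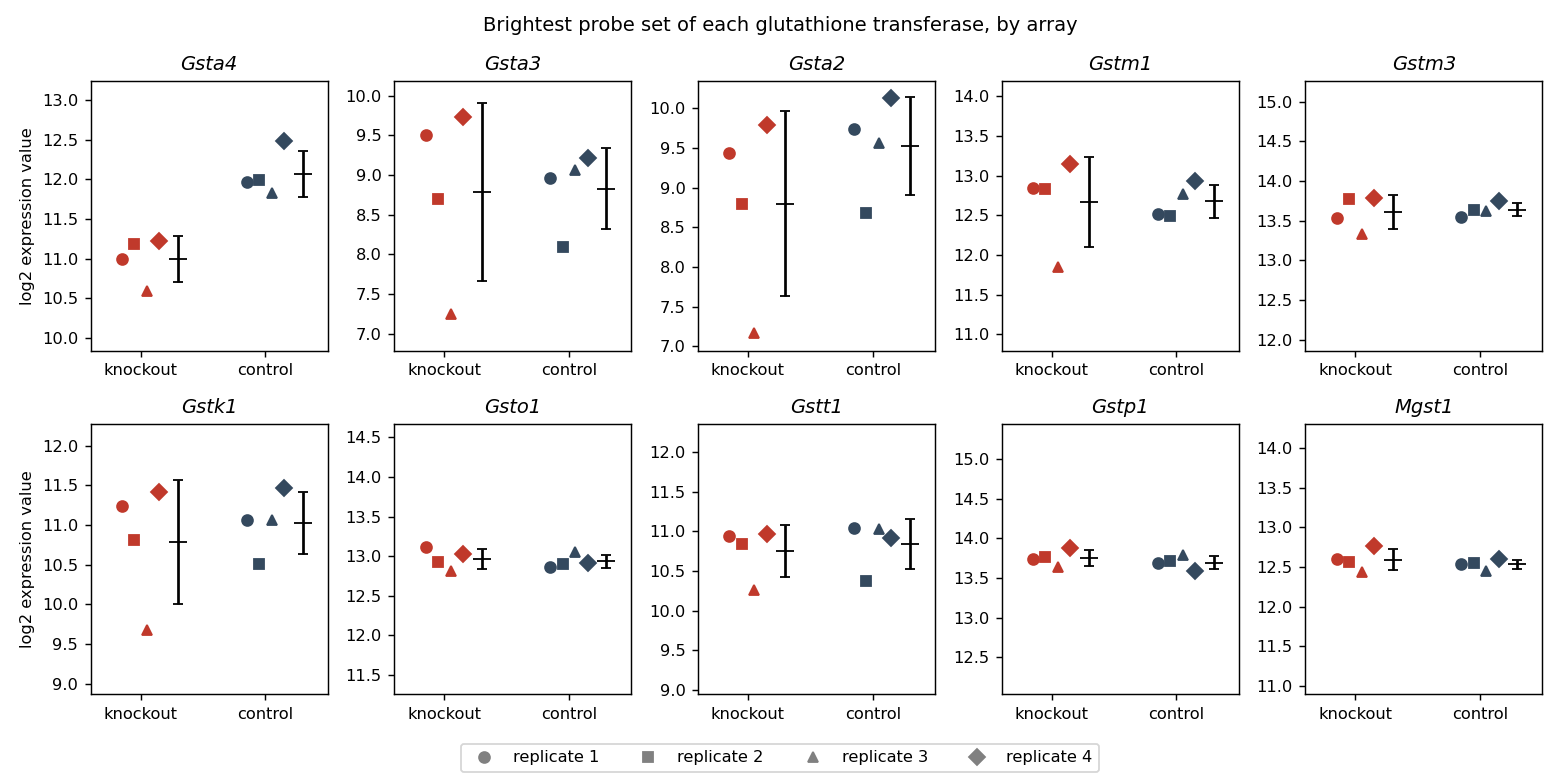
Log2 expression value (y axis) of the brightest probe set of each of the 10 genes on each array, knockouts in red and controls in dark grey, with the group mean and SD beside the points. Every panel spans the same number of log2 units. Gsta4 alone has all 4 knockout points under all control points, and knockout 3 is the lowest knockout in each panel.

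The other alpha class genes of the 10, Gsta2 and Gsta3, did not show this separation. Gsta1, also of the alpha class, had no probe set with its symbol alone and was not measured. Gsta2 encodes an alpha class enzyme with a broad range of organic substrates, and Gsta3 one that in mice detoxifies the epoxide of the mould toxin aflatoxin. Gsta2 read 9.44, 8.79, 7.16 and 9.80 in knockouts 1 to 4, against 9.74, 8.68, 9.56 and 10.13 in controls 1 to 4. Knockout 3 was far below the other knockouts and control 2 below the other controls, and the groups overlapped. The Gsta2 change was -0.73 (SE 0.51). It was -0.46 without knockout 3 and control 2, and -0.18 without knockout 3 alone.

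The brighter Gsta3 probe set read 9.50, 8.70, 7.25 and 9.73 in the knockouts, against 8.96, 8.09, 9.06 and 9.21 in the controls. The same arrays were low, and the groups overlapped. Its change was -0.04 (SE 0.47), and 0.23 without knockout 3 and control 2. The dimmer Gsta3 probe set had the same lowest arrays, at 4.63 in knockout 3 and 5.36 in control 2, and a change of -0.21 (SE 0.34), or -0.04 without both.

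The mu class genes Gstm1 and Gstm3, which encode cytosolic enzymes for aryl compounds and epoxides, also overlapped between the groups. The brightest Gstm1 probe set read 12.85, 12.83, 11.85 and 13.14 in the knockouts, against 12.51, 12.50, 12.77 and 12.93 in the controls. Knockouts averaged 12.67 ± 0.57 and controls 12.68 ± 0.21 (SD, n = 4 each), and knockout 3 was the low array. Across the 4 Gstm1 probe sets the change lay between -0.08 and 0.11, and without knockout 3 and control 2 all 4 were above 0, between 0.06 and 0.26. The brighter Gstm3 probe set read 13.54, 13.77, 13.33 and 13.79 in the knockouts, against 13.55, 13.63, 13.63 and 13.74 in the controls. Knockout 3 was again lowest, and the change was -0.03 (SE 0.10), or 0.06 without knockout 3 and control 2. The dimmer Gstm3 probe set had -0.20 (SE 0.16), or -0.04 without both. Mu class genes are similar in sequence. Names ending in _x_at or _s_at are the maker's mark for probes that may read transcripts of more than 1 gene. Of the 17 probe sets 4 have such names, 3 of them of Gstm1 or Gstm3.

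Gstk1, the kappa class enzyme of mitochondria and peroxisomes, read 11.24, 10.81, 9.68 and 11.42 in the knockouts, against 11.07, 10.50, 11.06 and 11.46 in the controls. Knockout 3 and control 2 were the lowest of their groups. The change was -0.24 (SE 0.34) and -0.04 without both arrays. Gstt1, a theta class enzyme known for acting on small halogenated compounds, read 10.94, 10.84, 10.26 and 10.96 in the knockouts, against 11.04, 10.37, 11.03 and 10.92 in the controls. Apart from knockout 3 and control 2 its values lay close together, and the change was -0.09 (SE 0.18), or -0.08 without them.

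Gsto1, Gstp1 and Mgst1 varied little. Gsto1 encodes an omega class enzyme that reduces dehydroascorbate, and its brighter probe set read 13.11, 12.93, 12.82 and 13.02 in the knockouts, against 12.86, 12.91, 13.05 and 12.91 in the controls. Gstp1, the pi class enzyme, which is also known to bind the stress kinase JNK, read 13.74, 13.77, 13.64 and 13.89 in the knockouts, against 13.69, 13.71, 13.79 and 13.59 in the controls. Mgst1 encodes a transferase of the endoplasmic reticulum and outer mitochondrial membrane, and its brighter probe set read 12.60, 12.56, 12.43 and 12.76 in the knockouts, against 12.53, 12.55, 12.45 and 12.60 in the controls. In all of them the groups overlapped, and the changes were 0.04 for Gsto1, 0.06 for Gstp1 and 0.06 for Mgst1, with standard errors of 0.081, 0.075 and 0.079. The dimmer Mgst1 probe set lay under the median of every array, with a change of 0.02 (SE 0.14), and the dimmer Gsto1 probe set had a change of 0.03.

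**Figure D2:**
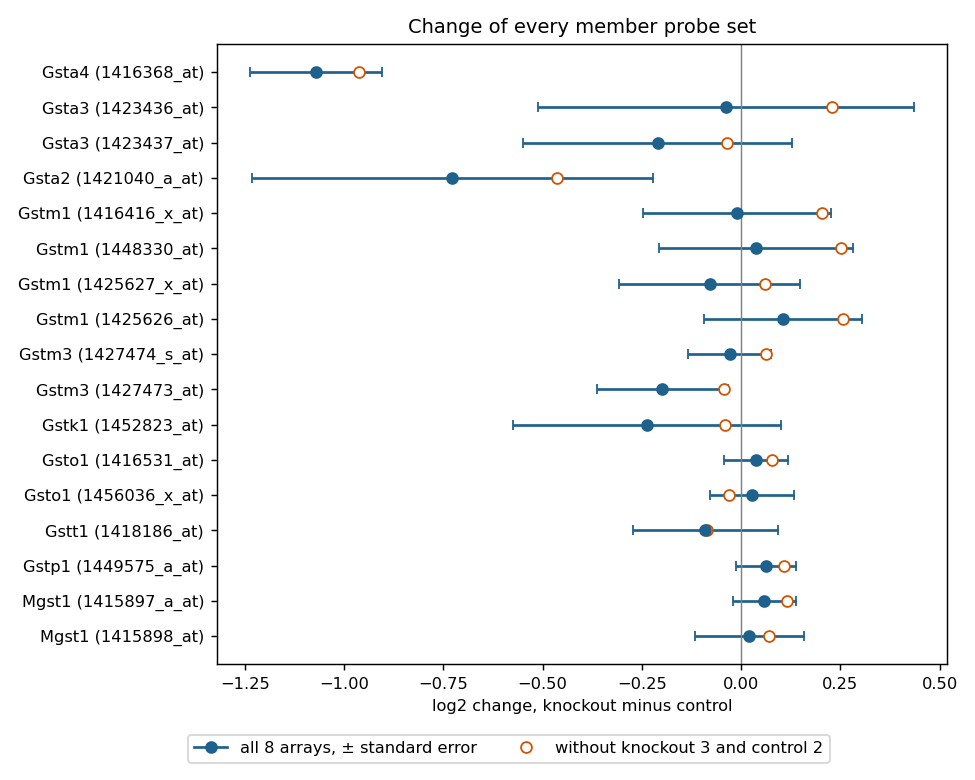
Log2 change, knockout minus control, of each of the 17 probe sets (x axis; filled points with their standard errors), and the same without knockout 3 and control 2 (open points). Gsta4 lies at -1.07 and -0.96, and the other 16 probe sets lie between -0.73 and 0.11 with all arrays.

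The members differed more in how they varied between mice of the same group. Gsta3, Gsta2, Gstk1, Gstm1 and Gstt1, grouped here after their values were seen, had within-group SDs between 0.32 and 0.93 on their brightest probe sets, larger than in 96.9% to 99.8% of all probe sets. For Gsto1, Gstp1 and Mgst1 the SD of the brightest probe set was 0.09 to 0.11, larger than in 22.9% to 34.7%, but the dimmer probe sets of Gsto1 and Mgst1 had 0.17 and 0.23, larger than in 72.5% and 90.9%. Gsta4 had 0.29, larger than in 95.7%. Gstm3 had 0.16 on its brighter and 0.29 on its dimmer probe set, larger than in 72.3% and 95.6%. Much of this spread lay in knockout 3 and control 2. Without both, the SD was 0.39 in Gsta3, 0.41 in Gsta2 and 0.28 in Gstk1, still larger than in 95.7% to 99.0% of all probe sets. It was 0.19 in Gstm1, larger than in 84.4%, and 0.067 in Gstt1, larger than in only 13.4%. Gsta4 had 0.26, larger than in 94.7%, and the Gstm3 probe sets 0.12 and 0.23, larger than in 51.1% and 91.6%.

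Knockout 3 was the lowest knockout in 16 of the 17 probe sets, where it was the lowest in 30.8% of all probe sets, and control 2 was the lowest control in 10 of the 17, against 21.5% of all. Knockout 3 minus the mean of the other knockouts was -2.18 in Gsta2, -2.06 in Gsta3, -1.47 in Gstk1, -1.09 in Gstm1, -0.65 in Gstt1 and -0.54 in Gsta4. Control 2 minus the mean of the other controls was -1.13 in Gsta2, -0.99 in Gsta3, -0.69 in Gstk1 and -0.63 in Gstt1, and nearer 0 in Gsta4, at -0.10, and Gstm1, at -0.24. Knockout 4 was the highest knockout in 9 of the 10 genes by their brightest probe sets.

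**Figure D3:**
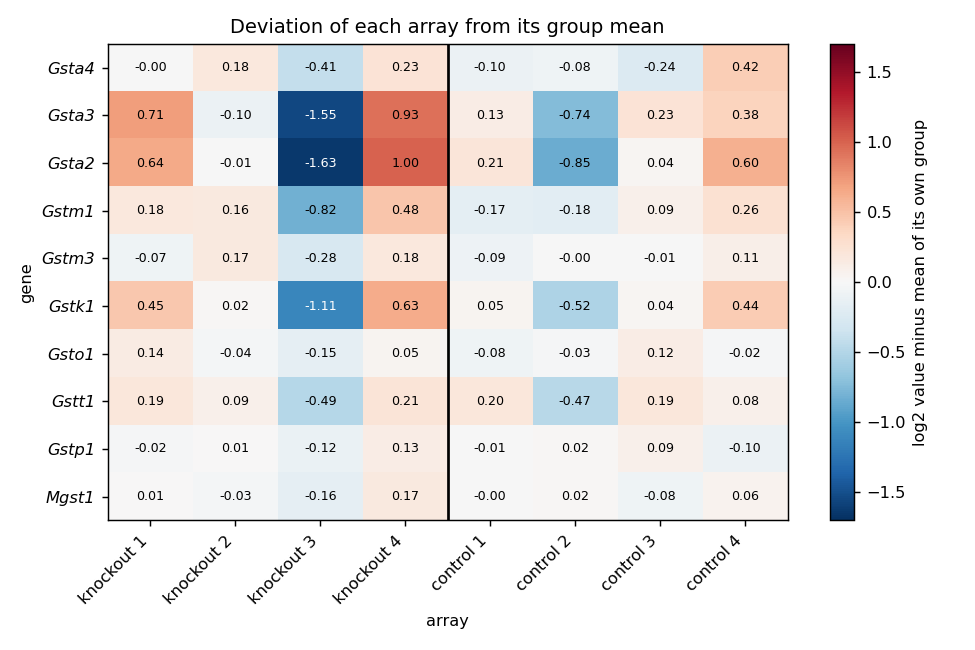
Deviation of each array from the mean of its own group, in log2 units, for the brightest probe set of each gene (rows) on each array (columns, knockouts left of the line). Knockout 3 is blue in all rows, most in Gsta2, and control 2 is blue mainly in Gsta3, Gsta2, Gstk1 and Gstt1.

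Gsta2, Gsta3 and Gstk1 followed each other closely over the 8 arrays once group means were removed, with r between 0.99 and 1.00 for the 3 pairs, and RefSeq places them on chromosomes 9, 1 and 6. These r values describe 8 arrays on which all the genes were read from the same RNA, among them the 2 arrays that stood apart. Over the other 6 arrays r was 0.91 to 0.98 for the same 3 pairs. Gsta4 followed them less closely, with r = 0.73 to Gsta2, 0.64 to Gsta3 and 0.75 to Gstk1, and was nearest to Gstm3, with 0.85. Without both arrays these were 0.46, 0.13, 0.53 and 0.71. Promoter windows of 300 bases, 250 before to 50 after the transcription start, were found in RefSeq (GRCm38.p6) for 9 of the 10 genes, all but Gsta4, in 11 windows, so the motif counts leave Gsta4 out. The windows of the 3 genes that varied together are shown for comparison, 5′ to 3′ along the gene's strand, with a match to the antioxidant response element core in capitals. They lie at chr9:78347096-78347395 (minus strand, Gsta2), chr1:21240335-21240634 (plus strand, Gsta3) and chr6:42245685-42245984 (plus strand, Gstk1).
Gsta2: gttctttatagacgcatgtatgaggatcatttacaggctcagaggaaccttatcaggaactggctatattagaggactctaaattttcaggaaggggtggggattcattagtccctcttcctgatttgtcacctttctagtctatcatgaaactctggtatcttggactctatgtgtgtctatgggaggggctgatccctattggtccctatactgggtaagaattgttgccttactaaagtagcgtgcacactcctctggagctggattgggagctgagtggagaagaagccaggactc
Gsta3: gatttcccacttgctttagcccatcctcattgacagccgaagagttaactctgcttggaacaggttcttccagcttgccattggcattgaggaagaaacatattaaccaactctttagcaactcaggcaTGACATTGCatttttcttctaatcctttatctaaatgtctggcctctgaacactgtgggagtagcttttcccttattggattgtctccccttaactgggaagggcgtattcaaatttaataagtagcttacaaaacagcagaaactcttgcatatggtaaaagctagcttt
Gstk1: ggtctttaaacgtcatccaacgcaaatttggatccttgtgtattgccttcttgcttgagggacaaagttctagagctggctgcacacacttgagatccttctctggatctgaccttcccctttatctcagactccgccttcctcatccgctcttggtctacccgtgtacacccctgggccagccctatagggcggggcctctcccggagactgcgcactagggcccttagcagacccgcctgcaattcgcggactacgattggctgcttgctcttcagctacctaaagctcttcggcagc

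The core searched was TGACNNNGC, where N is any base, on both strands. It stood in 2 of the 11 windows, once in Gsta3, at -121 to -113 from the start, and once on the opposite strand in an Mgst1 window, at -56 to -48. Of all 32851 windows 12.4% held it. TAATTA, a core that many homeodomain proteins bind, was in 0 of the 11 and in 5.29% of all windows, and the TATA box TATAAA was in 2 of the 11 and in 13.6% of all. In Gstm1 it lay at -30 to -25 on the gene's strand, and in Gsta2 at -246 to -241 on the opposite strand. No match overlapped one of another motif. A match is a stretch of letters and does not show binding. Only these letters were searched, so a window without a match may still hold a variant.

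Genes that act with these enzymes were taken from 5 lists written down for this work. In the fit over all probe sets 0 of their 119 probe sets rose and 0 fell by limma at an adjusted p under 0.05. At an unadjusted p under 0.05 there were 10, or 8.40%, beside the 7.13% of all probe sets, and the groups were separated in 8, or 6.72%, beside 4.43%. The lists stood for 73 measured genes, 43 above 0 and 30 below, with a median change of 0.03, where all genes had a median of 4.58e-03.

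Of 14 other glutathione transferases measured, 9 were above 0 and 5 below, between -0.06 and 0.11, and 0 of 16 probe sets had an unadjusted p under 0.05. The smallest p belonged to Gstm7 on its dimmer probe set, at -0.13 (adjusted p = 0.781 in limma), and to the microsomal enzymes Mgst3 at 0.10 and Mgst2 at 0.11. Gstm6 of the mu class averaged 10.14 ± 0.49 in knockouts and 10.03 ± 0.24 in controls (SD, n = 4 each). Among the 20 genes of glutathione synthesis and recycling 11 were above 0 and 9 below (median 0.05). Glutaredoxin, Glrx, which reduces protein disulfides with glutathione, had 0.25 and separated groups (adjusted p = 0.618 in limma). Gclc, the catalytic subunit of the enzyme that limits glutathione synthesis, had -0.16, and its partner subunit Gclm had 0.10. Ggct and Chac1 both break down glutathione or its fragments. Ggct had -0.19 on a dim probe set but -0.06 on its brightest, and Chac1 had -0.31.

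In the list of conjugate export and breakdown 10 of 13 genes were above 0 (median 0.08). The peptidases Lap3 and Anpep, which can cut the cysteinylglycine left from a conjugate, had 0.44 and 0.43 with separated groups and did not pass (adjusted p = 0.420 and 0.476 in limma). Ggt7 had 0.17 on a dim probe set, and the apical pump Abcc2, which exports glutathione conjugates, had -0.05. Of 17 other NRF2 targets and regulators 8 were above 0 and 9 below (median -0.02). NRF2 itself, from Nfe2l2, had 0.05, its partner Keap1 0.07 and the quinone reductase Nqo1 -0.05. The carbonyl reductase Cbr3 had -0.43 (adjusted p = 0.561 in limma). The receptor partner Arnt had 0.25 on the probe set with its smallest p but -0.13 on its brightest. The sulfiredoxin Srxn1 had 0.20 on the probe set with its smallest p and 0.14 on its brightest. Other enzymes that clear lipid aldehydes numbered 9, with 5 above 0 and 4 below (median 0.04). Aldh9a1 had 0.22 with separated groups (adjusted p = 0.582 in limma), Akr1a1 0.08 and Aldh2 0.10 on the probe set with its smallest p. None of these genes passed, and a p that misses the threshold does not show that they were equal.

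**Figure D4:**
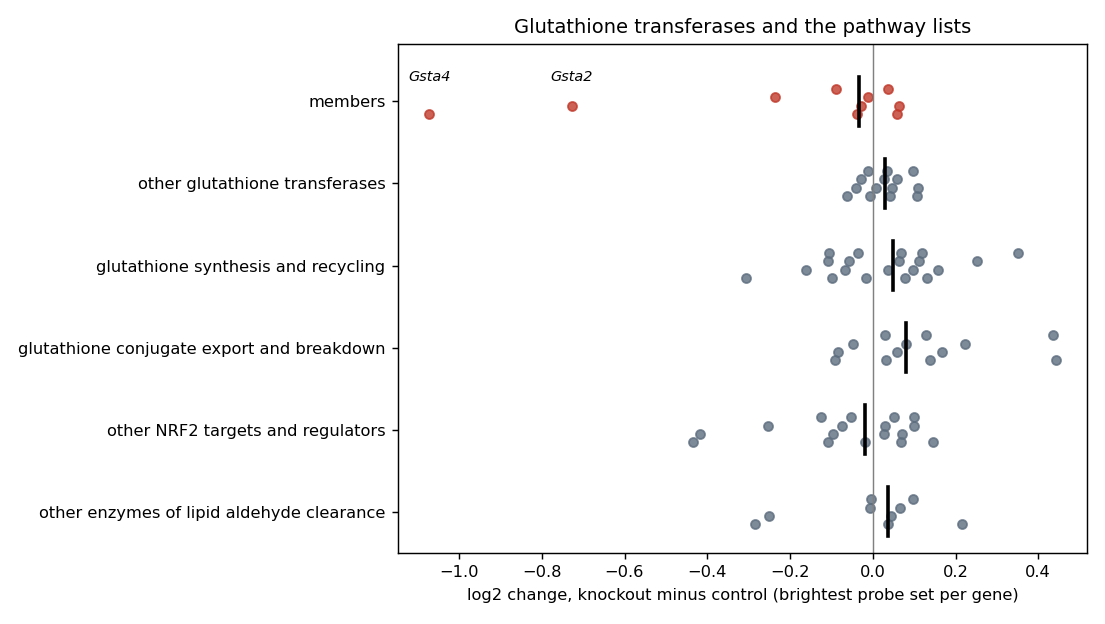
Log2 change, knockout minus control (x axis), of each gene's brightest probe set for the 10 members (red) and the 5 lists (grey), with the median of each row as a black bar. Gsta4 at -1.07 and Gsta2 at -0.73 are the lowest points drawn, and the list genes lie between -0.43 and 0.44.

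Some list genes were also low in knockout 3 and control 2, and a few were high there. In 14 of the 73, or 19.2%, knockout 3 lay at least 0.5 under the mean of the other knockouts, where 2.99% of all genes did, and in all 14 control 2 was under the mean of the other controls, by at least 0.25 in 11, or 78.6%. Of the 544 genes of the whole table with knockout 3 as low, 69.1% had control 2 at least 0.25 under. The epoxide hydrolase Ephx1 differed by -2.01 between knockout 3 and the mean of the other knockouts, and by -0.94 between control 2 and the mean of the other controls. The retinaldehyde dehydrogenase Aldh1a1 read 11.90 in knockout 3, against 12.34 in control 2, and 12.98 to 13.48 in the other knockouts, against 12.98 to 13.11 in the other controls. The mu class genes Gstm2, Gstm4, Gstm6 and Gstm7, Gclc, Gpx4, Nat8, Abcc2, Me1, Nqo1, Ahr and the xenobiotic receptor Nr1i3 made up the rest. In 4 list genes, or 5.48%, knockout 3 lay at least 0.5 over the other knockouts, where 2.15% of all genes did. They were glutathione reductase, Gsr, at 0.75, Aldh3a1 at 0.74, Akr1b8 at 0.57 and Chac1 at 0.52, with control 2 over the other controls by 0.75, 0.82, 0.94 and 0.12. These genes were singled out after their values were seen, and no test was run on them.

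The genes most like Gsta4 over the 8 arrays, among 12215 others with a mean above the median probe set, were Twnk (r = 0.97), Ctxn1 (0.97), Tceal9 (0.96), Ncoa4 (0.96) and Akp3 (0.96). With group means removed their r was 0.98, 0.93, 0.99, 0.81 and 0.76. Of the 5, Akp3, an intestinal alkaline phosphatase, fell to 9.80 ± 0.55 in knockouts, against 12.79 ± 0.30 in controls (SD, n = 4 each), with an adjusted p of 0.00127 by limma. The others did not pass, with -0.14 for Twnk, -0.12 for Ctxn1, -0.33 for Tceal9 and -0.99 for Ncoa4. Since Gsta4 differed between the groups, ranking by r over the 8 arrays favours genes that differ too. Their changes are therefore a description and no separate support for that of Gsta4.

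Marker lists for the cells that whole tissue could hold were read beside these values, as the sum of the linear values of each list's genes. The brightest probe sets weigh most in such a sum, and it is compared only between arrays. All 9 measured enterocyte markers were above 0. Their sum ran from 137945 to 152469 in the knockouts, against 122579 to 136856 in the controls, without overlap. Within each group that sum was lowest in knockout 3 and in control 2, but the single markers did not all go that way. Knockout 3 minus the mean of the other knockouts was -0.74 in Lct and -0.39 in Apoa4. It was -0.13 to -0.05 in Apoa1, Fabp1, Fabp2 and Rbp2, and 0.11 in Vil1, 0.15 in Krt20 and 0.09 in Cdhr5. Control 2 minus the mean of the other controls was -0.81 in Lct, 0.05 in Krt20 and 0.01 in Cdhr5. In the other enterocyte markers it was -0.26 to -0.05. All 9 exocrine pancreas markers were below 0. Their sums were 63426 to 120631 in the knockouts, highest in knockout 3, against 36027 in control 3 to 161288 in control 4. Among them Klk1 alone had separated groups, at -0.92 (adjusted p = 0.355 in limma). The other pancreas markers overlapped and lay between -0.62 and -0.05. All 6 stomach and Brunner gland markers were below 0 too, with sums of 34282 to 48189 in the knockouts, against 34167 to 67279 in the controls, highest in control 2. Of 6 hepatocyte markers 4 were below 0, and their sum was 474 to 722 in the knockouts, against 766 to 1253 in the controls, without overlap. That separation came from Ttr: the other 5 summed to 235 to 259 in the knockouts, against 223 to 328 in the controls, and the groups overlapped. The sum with Ttr was lowest in knockout 3. All 9 smooth muscle markers were above 0, with sums of 11863 to 15467 in the knockouts, against 11323 to 12225 in the controls. Since log2 values have no zero, no marker could be called absent, and Alb, which defines hepatocytes, averaged 5.44 in knockouts and 5.58 in controls, near the array medians. The part of these cells in the values of Gsta4 and of the other members was not tested.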

How the data were processed

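RNA of 8 whole tissue samples, 4 knockout and 4 control, was labelled with biotin and hybridised to Affymetrix arrays, per the labels' protocols. The authors deposited 1 table of log2 expression values, with array medians of 5.23 to 5.27. The submitters' processing notes name Partek 6.4 without a role, and the normalization is not given in the sources used here. Similar medians hide a shift shared by all transcripts, and dim probe sets hold an unknown share of background. For arrays the number of arrays limits the precision.

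Of 45101 probe sets 64 controls were left out. GEO's platform annotation gave 34945 of the remaining 45037 a single gene symbol, 932 several and 9160 none, and 34741 matched the RefSeq table by Entrez identifier. Knockout minus control was fitted with lmFit and eBayes of limma 3.58.1 (R 4.3.3) over all probe sets, two-sided, with Benjamini-Hochberg adjustment, and changed means an adjusted p under 0.05. The brightest probe set by its mean over the 8 arrays stood for a gene. The members and lists were chosen with earlier results of these data known. The text names all members, Pdx1, up to 3 genes with the smallest p in each list, the 5 genes most like Gsta4 by r over the 8 arrays, and some genes chosen after their values were seen. Of the 81 list genes 73 were measured here. The marker lists for crypt, Paneth, goblet, immune, neuron and glia, fibroblast and adipocyte cells had median changes of -0.04, -0.08, 2.63e-04, 0.11, -0.08, 0.04 and 0.38. In the crypt list Ascl2 had -0.30 and Lgr5 -0.28 (adjusted p = 0.676 and 0.703 in limma). The other crypt markers lay between -0.05 and 0.10. The adipocyte median rests on 2 genes, Cidec at 0.16 and Adipoq at 0.59 (SE 0.56). Adipoq read 6.76 in knockout 1, against 3.39 to 4.75 in the other knockouts. Alternatives were the replicate block, repeated quantile normalization, median centring, a floor at 5, a minimum mean of 5, array weights, a robust trended prior, averaging the probe sets of a gene, each array left out, and knockout 3 and control 2 both left out, the last chosen after seeing the data. Figures were drawn with matplotlib 3.10.9.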

Additional observations from a re-analysis of the deposited data

Results flagged for a closer look

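A sample far from the rest of its group was looked for in 64 groups of 4, and chance alone marks about 5% of groups. The dimmer Ggct probe set read 4.49 in control 3, against 4.17 to 4.22 in the other controls. Aldh9a1 read 12.18 in control 1, against 12.01 to 12.04 in the other controls, with all 4 knockouts above it. No probe set of the 10 members was marked in this way.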

How the results depend on the processing

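The Gsta4 change stayed between -1.15 and -0.93 in all 17 alternatives, its lowest value without control 3 and its highest without control 4. With the replicate block 1 member probe set, that of Gsta4, passed an adjusted p under 0.05 in limma. In the reported fit and in the 15 other alternatives that give calls, 0 passed. Since the values of Gsta4 helped to choose it, that call is a description only. Averaging the probe sets of a gene was run for the fold changes alone, and a minimum mean of 5 keeps 16 of the 17 member probe sets. The labels do not say that replicate numbers pair the mice, and deviations of arrays with the same number correlated at only -0.18 to 0.08. Over all 45037 probe sets the block gave 24 calls, 16 of them among the 19 reported. With values under 5 set to 5 there were 4 calls, and the cause was not tested, and leaving out 1 array gave 13 to 20. The list probe sets had 0 calls in all 16 alternatives that give calls. Gsta2 stayed below 0 in all 17, between -1.06 and -0.18, while Gsta3, at -0.35 to 0.48, and Gstm1, at -0.17 to 0.26, had both signs, each highest without knockout 3 and lowest without knockout 4. The median over the member probe sets ran from -0.16 to 0.11.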
